A study of Mus musculus with 2 samples.

Results

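The genes described here are those of 6 families that carry out membrane fusion of vesicles, the synaptotagmins (*Syt*), syntaxins (*Stx*), syntaxin binding proteins (*Stxbp*), the *Snap* genes, the vesicle-associated membrane proteins (*Vamp*) and the complexins (*Cplx*). They were chosen by symbol alone, as every row whose gene symbol begins with one of these names and a digit. The rule found 52 of the 18498 rows, namely 16 *Syt*, 15 *Stx*, 7 *Stxbp*, 5 *Snap*, 6 *Vamp* and 3 *Cplx* genes. The samples were the circumvallate papillae (CvP), the trench-lined taste papillae at the back of the tongue, and the tongue epithelium without papillae (Epi). Both came from male C57BL/6J mice of 12 to 30 weeks on normal chow with no treatment or transgene named, and RNA of at least 20 mice was pooled into 1 poly(A) library per tissue. The CvP sample also held epithelium around the taste buds. There were thus no replicates, and the values below are those of 2 libraries with no p-value.

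Vesicles fuse when a SNARE protein on the vesicle (a VAMP) zips together with SNARE proteins on the target membrane (a syntaxin and a SNAP protein) into a tight bundle. STXBP proteins of the Munc18 type hold the syntaxin and guide assembly, complexin clamps the bundle, and synaptotagmin binds calcium and triggers fusion at nerve terminals. Every cell runs such reactions between its internal compartments with its own set of paralogs, and neurons add a fast, calcium-triggered set. In taste buds, type III cells form conventional synapses with nerve fibres and stain for SNAP25, whereas type II cells release transmitter through large-pore channels.

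The sequences upstream of 4 of these genes are shown because 3 of the genes, *Cplx2*, *Syt1* and *Stx1a*, belong to the synaptic set that was higher in the CvP, and *Syt10* was the member that was lower. Each is the 250 bases before the annotated start on GRCm38.p6, from RefSeq, read along the gene, with the E-box CAGCTG in capitals. They lie at chr13:54302306-54302555 (*Cplx2*, plus strand), chr10:109009112-109009361 (*Syt1*, minus strand), chr5:135023232-135023481 (*Stx1a*, plus strand) and chr15:89841861-89842110 (*Syt10*, minus strand).
Cplx2: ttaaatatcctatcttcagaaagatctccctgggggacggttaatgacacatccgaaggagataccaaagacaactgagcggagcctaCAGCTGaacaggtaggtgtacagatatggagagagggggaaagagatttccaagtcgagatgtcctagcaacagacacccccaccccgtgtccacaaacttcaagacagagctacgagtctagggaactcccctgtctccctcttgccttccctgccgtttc
Syt1: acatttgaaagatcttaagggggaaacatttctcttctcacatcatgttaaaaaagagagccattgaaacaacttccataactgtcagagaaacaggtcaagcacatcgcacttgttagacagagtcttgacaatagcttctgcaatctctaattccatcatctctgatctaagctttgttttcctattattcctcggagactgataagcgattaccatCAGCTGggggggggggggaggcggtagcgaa
Stx1a: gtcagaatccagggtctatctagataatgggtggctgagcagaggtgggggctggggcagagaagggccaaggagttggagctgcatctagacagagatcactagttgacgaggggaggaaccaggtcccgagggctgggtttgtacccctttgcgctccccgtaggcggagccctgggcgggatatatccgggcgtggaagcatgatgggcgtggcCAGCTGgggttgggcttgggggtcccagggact
Syt10: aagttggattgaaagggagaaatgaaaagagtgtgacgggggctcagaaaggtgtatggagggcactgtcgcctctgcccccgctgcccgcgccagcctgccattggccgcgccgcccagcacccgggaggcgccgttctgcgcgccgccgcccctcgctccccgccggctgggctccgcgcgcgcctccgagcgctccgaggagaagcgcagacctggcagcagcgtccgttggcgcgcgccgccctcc

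The first base of the E-box stood at position -162 in *Cplx2*, -31 in *Syt1* and -33 in *Stx1a*, counted back from the start, and the *Syt10* window held none. A second annotated start of *Syt1* had no match either. RefSeq held a promoter for 41 of the 52 members, as 50 windows. On either strand, CAGCTG was present in 13.0% of all 32851 promoters, for 11 of the 41 members and for 3 of the 6 members higher in the CvP that had a promoter. The GC box GGGCGG, a common feature of promoters, was present in 32.7% of all promoters, for 28 of the 41 members and for 4 of the 6. Members were counted by gene, with a match in any window, and all promoters by window. A member with several windows thus had more chances of a match. In all 18 motifs were searched, some of which overlap each other, and the E-box was chosen for display after the matches were seen, so these counts are descriptions of the letters.

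Values are RPKM, reads corrected for the listed exon length and the number of mapped reads, and a member was followed where it had an RPKM at or above 1 in either library. This held for 37 of the 52 members, with 36 at or above 1 in the CvP, 25 in the Epi and 24 in both. A member is called higher where the CvP/Epi ratio was above 3 and lower where it was under 1/3, the fold used in the study. Of the 37 members, 10 were higher (27.0%, against 15.9% of all 12549 rows past the same limit), 1 was lower (2.70%, against 1.96%) and 26 were neither. Among the 10 were *Snap25*, *Cplx2*, *Syt1*, *Syt5*, *Syt7*, *Syt11*, *Stx1a*, *Stx3* and *Stxbp4*, and the 1 lower was *Syt10*. Ratios were also divided by the median ratio of rows at or above 1 in both libraries, given below. *Stx1a*, *Stx3* and *Stxbp4* then fell under 3, at 2.56, 2.30 and 2.42, while the other 7 stayed above it. The median log2 ratio of the 37 was 0.72, beside 0.50 over all rows past the limit. *Snap25* alone also passed the criteria of the study, a CvP RPKM above 10 and a ratio above 3, which 2.35% of all rows met.

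The libraries held about 28375281 mapped reads in the CvP against 27908511 in the Epi, read from the steps between the lowest values. Reads per gene were estimated from these, and each ratio carries a 95% exact (Clopper-Pearson) interval that covers counting error only. Over the 10363 rows at or above 1 in both libraries the median ratio was 1.31 (log2 0.39), so a ratio near 1.31 is that of the middle row. Type III taste markers summed to an RPKM of 118 in the CvP against 0.73 in the Epi, and 6 of the 9 were listed at 0 in the Epi. Skeletal muscle markers summed to 2.93 and 42.7, and salivary gland markers to 20.9 and 400.1. Where values are given as a pair the CvP comes first, and gene positions are on NCBI37/mm9. Neither the exon model nor the counting was stated to use strand.

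**Figure D1:**
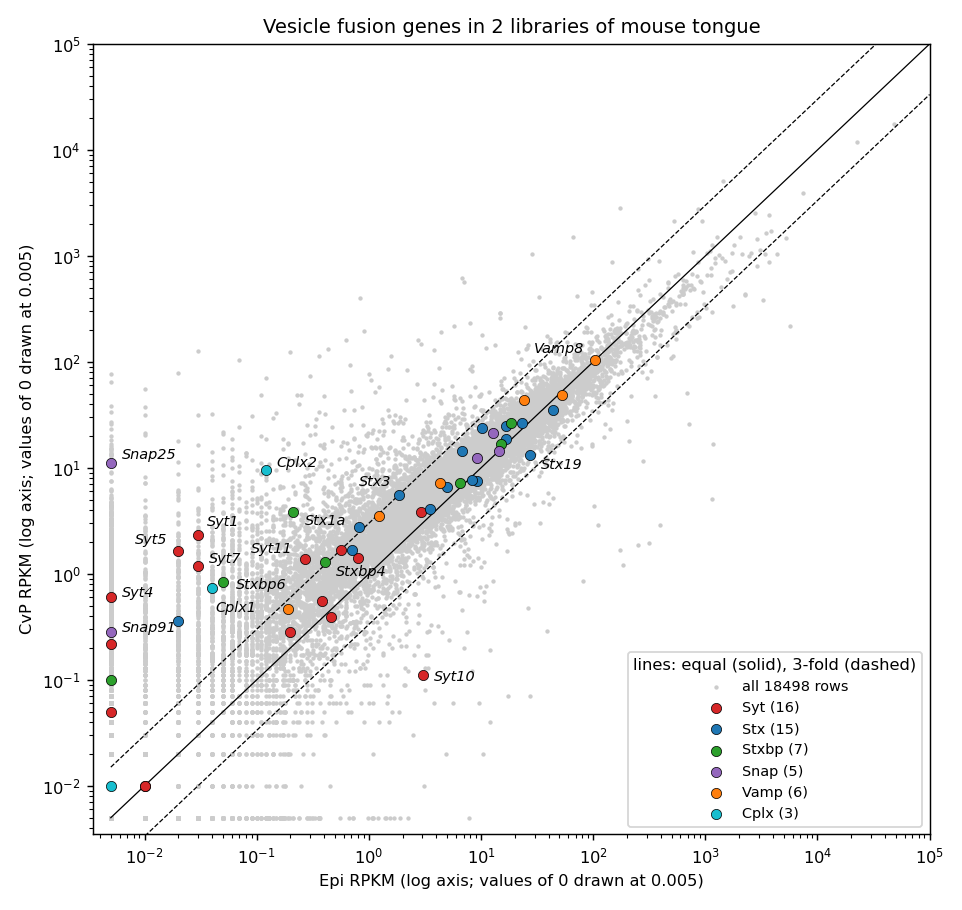
RPKM of all 18498 rows in the Epi (x axis) and the CvP (y axis), both on log axes, with the 52 vesicle fusion genes coloured by family and values of 0 drawn at 0.005. *Snap25* and *Cplx2* lie far above the dashed 3-fold line, *Syt10* far below it, and the genes of high RPKM, such as *Vamp8*, lie near the line of equal values.

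From what is known of them, 14 members were grouped as parts of calcium-triggered release at nerve terminals, a grouping made after the values had been seen. Of these 14, 10 passed the limit of 1, 7 were higher, 3 were neither and none was lower, where 15.9% of all rows past the limit were higher and 1.96% lower, and their median log2 ratio was 3.48, beside 0.15, 0.41 and 0.74 in the 3 other groups given below. *Syt10*, the only lower member and a calcium sensor known from neurons, was placed outside the 14. The absence of a lower gene among the 14 is thus set by the grouping, and their median depends on it too. In the Epi 12 of the 14 were under an RPKM of 1. Bulk tissue cannot tell fewer cells of a type from less RNA per cell.

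*Snap25* (chr2:136539186-136608164, plus strand) encodes the SNAP protein of nerve terminals. Its RPKM was 11.11 in the CvP, and it was listed at 0 in the Epi. The CvP value stands for about 3832 reads by the listed length and 667 by the longest coding transcript annotated, and the lower estimate is used here as for every gene. Set against a floor of 3 reads in the Epi library, it was at least 219-fold higher in the CvP, and with the counting error of both libraries the lower limit of the ratio was 177. By CvP RPKM it stood at percentile 72.5 of all rows. Its listed length of 12.155 kb is 5.74 times that transcript. If all its reads came from the transcript, the CvP level per kilobase of it would be 63.8.

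*Cplx2* (chr13:54472713-54485278) encodes the complexin that binds the assembled bundle. Its RPKM was 9.49 in the CvP against 0.12 in the Epi, about 1326 and 16 reads, a ratio of 79.1 (95% interval 50.0 to 143). Its paralog *Cplx1* had an RPKM of 0.73 in the CvP against 0.04 in the Epi. Per listed length *Cplx2* stood at 13.0 times *Cplx1* in the CvP. *Cplx3*, a complexin of ribbon synapses, was at 0.01 and 0, about 1 read in all.

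Among the calcium sensors, 3 synaptotagmins of the synaptic set had near-absent reads in the Epi. *Syt1* (chr10:107935314-108447675), the sensor of fast release in many neurons, had an RPKM of 2.31 in the CvP against 0.03 in the Epi, a ratio of 77.0 (27.6 to 263). *Syt5* (chr7:4491367-4498169), found on dense-core and synaptic vesicles, had 1.65 and 0.02, a ratio of 82.5. The interval of *Syt5* ran from 14.1 to 3224, because its Epi value rests on about 1 read. *Syt7* (chr19:10463580-10527671), a slow sensor of high calcium affinity, had 1.18 and 0.03, a ratio of 39.3 (17.0 to 103). The intervals of these 3 ratios overlap each other. *Syt2*, the close relative of *Syt1*, was unlike them, with an Epi RPKM of 0.57 beside 1.68 in the CvP. Its ratio of 2.95 (2.38 to 3.71) lay just under 3. *Syt9*, the remaining fast sensor of the set, was low in both libraries, at 0.39 and 0.46.

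*Stx1a* (chr5:135499442-135526969), the syntaxin of nerve terminals, had an RPKM of 2.76 in the CvP against 0.82 in the Epi, a ratio of 3.37 (2.46 to 4.76). Its interval lay below those of *Cplx2*, *Syt1*, *Syt5* and *Syt7*.

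The vesicle SNAREs of the synaptic set were present in both tissues. *Vamp2* (chr11:68902030-68905883), which is used in synapses and in many other secretory cells, had an RPKM of 43.60 in the CvP against 24.41 in the Epi, a ratio of 1.79 (1.68 to 1.90). *Vamp1*, its paralog, had 3.52 and 1.24, a ratio of 2.84 (2.27 to 3.59). *Vamp2* held most of the summed RPKM of the 14 genes. The sum was 82.6 in the CvP against 28.0 in the Epi, and without *Vamp2* it was 39.0 and 3.56, a ratio of 11.0.

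**Figure D2:**
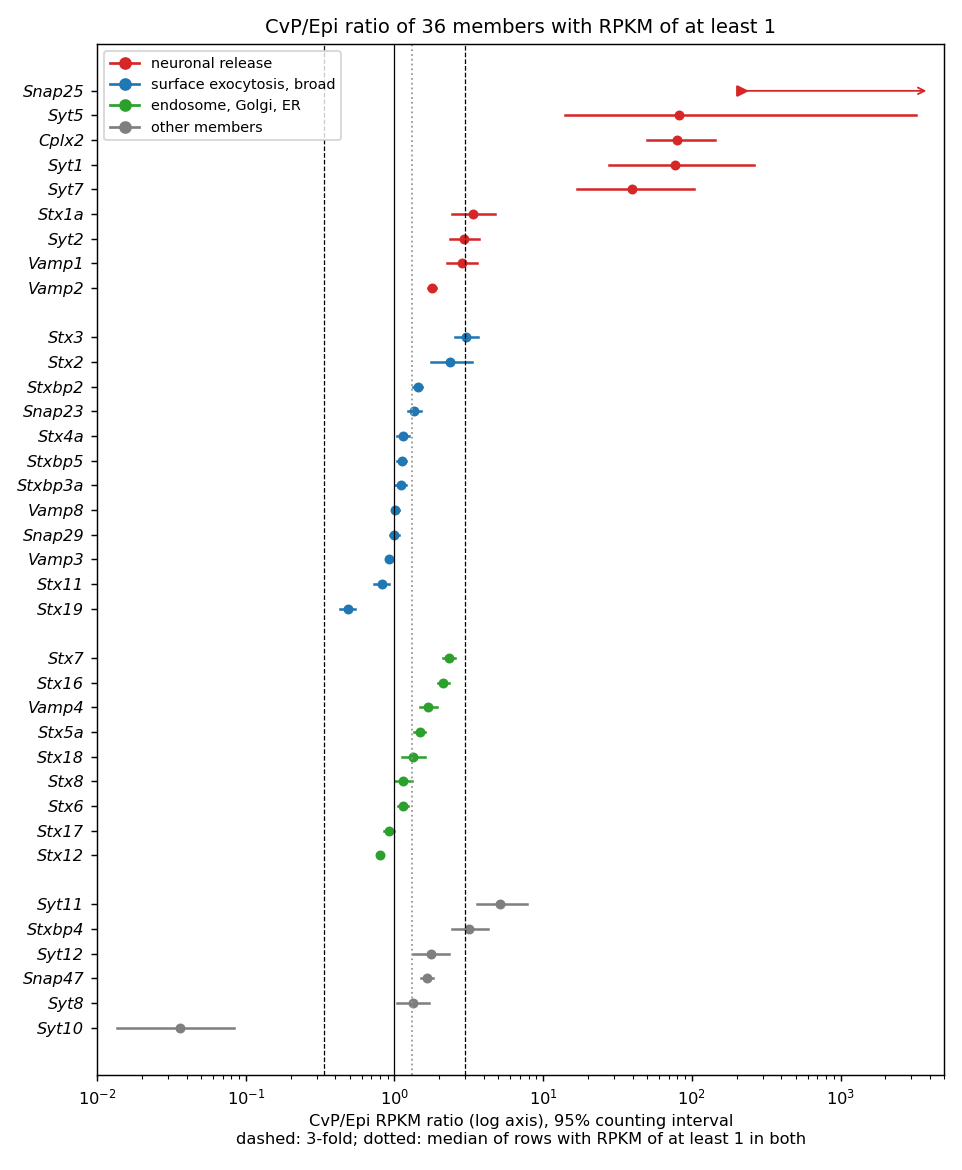
CvP/Epi RPKM ratio of 36 members with an RPKM at or above 1 in either library (log axis), ordered within 4 groups by role, with 95% counting intervals as bars and an arrow for *Snap25*, whose Epi value was 0. The synaptic genes from *Snap25* to *Syt7* lie above 10, while the 12 genes of broad exocytosis run from 0.485 to 3.02 and the 9 of endosomes, Golgi and ER from 0.799 to 2.33.

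The genes for fusion at the cell surface in other cell types carried most of the summed RPKM, and their sum was close to equal in the tissues while single genes ran from 0.485 to 3.02 in ratio. This group of 12 members summed to an RPKM of 285 in the CvP against 282 in the Epi, a ratio of 1.01, and all 12 passed the limit of 1. *Vamp8* and *Vamp3*, given below, made up much of both sums. The ratio of 1.01 is that of unscaled RPKM and lay under the median of 1.31 of rows at or above 1 in both libraries. It held 52.6% of the RPKM of all 52 members in the CvP against 63.2% in the Epi. The synaptic group held 15.2% and 6.27%. Of the 12, 1 was higher and none was lower, where 15.9% of all rows past the limit were higher and 1.96% lower. In a group of this size such counts tell little.

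*Vamp8* (chr6:72335215-72340661), the vesicle SNARE of secretory granules and late endosomes, had the highest RPKM of all members in both tissues. Its RPKM was 104.76 in the CvP against 103.50 in the Epi, a ratio of 1.01 (0.956 to 1.07). *Vamp3*, the SNARE of recycling endosomes, came next with 48.39 and 52.38, a ratio of 0.924 (0.878 to 0.972). Per listed length *Vamp2* stood at 0.901 of *Vamp3* in the CvP and at 0.466 of it in the Epi.

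*Snap23*, the broad counterpart of *Snap25*, had an RPKM of 12.38 in the CvP against 9.14 in the Epi, a ratio of 1.35 (1.23 to 1.50). *Snap29*, which acts with syntaxin 17 in autophagy and elsewhere, had 14.55 and 14.57, a ratio of 0.999 (0.927 to 1.08). Per listed length *Snap25* reached 0.897 of *Snap23* in the CvP, and per annotated transcript 2.32 times it, so the order of these paralogs depends on the length used.

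Of the surface syntaxins, *Stx3* (chr19:11849608-11893893), which serves apical membranes and ribbon synapses, had an RPKM of 5.56 in the CvP against 1.84 in the Epi. Its ratio of 3.02 (2.53 to 3.62) lay at the limit of 3. *Stx2* had 1.69 and 0.71, a ratio of 2.38 (1.75 to 3.30). *Stx4a*, the syntaxin of the basolateral surface, was higher in RPKM than either, at 26.39 and 23.13. *Stx11*, known from immune cells, had 7.58 and 9.24, a ratio of 0.820 (0.728 to 0.923). *Stx19*, a syntaxin of epithelia without a transmembrane segment, had 13.26 and 27.33. Its ratio of 0.485 (0.432 to 0.544) was the lowest among members after *Syt10*, though within the 3-fold limit.

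The Munc18 genes and tomosyn outside the synaptic set were all within 3-fold. *Stxbp2* (Munc18-2), the partner of syntaxins 3 and 11, had an RPKM of 26.79 in the CvP against 18.69 in the Epi, a ratio of 1.43 (1.34 to 1.53). *Stxbp3a* (Munc18-3), the partner of syntaxin 4, had 16.74 and 15.20. *Stxbp5* (tomosyn), which holds syntaxins inactive, had 7.24 and 6.47. For *Stx4a*, *Stx6*, *Stx8*, *Stxbp3a*, *Stxbp5* and *Vamp8*, 6 members with a ratio just above 1, the direction turned when ratios were divided by the median ratio.

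None of the 9 genes of endosomes, Golgi and ER passed 3-fold in either direction, and they summed to 142 in the CvP against 115 in the Epi. Over all rows past the limit 15.9% were higher and 1.96% lower, so for 9 genes this count tells little. *Stx7*, a syntaxin of late endosomes, was at 23.66 and 10.15, a ratio of 2.33 (2.13 to 2.55), and *Stx16* of the trans-Golgi network at 14.34 and 6.72, a ratio of 2.13 (1.95 to 2.33). *Vamp4*, which also serves the trans-Golgi network, had 7.25 and 4.29. *Stx12*, an endosomal syntaxin with the highest RPKM of its family, had 34.99 and 43.77, a ratio of 0.799 (0.761 to 0.840). *Stx5a* of the Golgi (24.76 and 16.80), *Stx6* (18.79 and 16.54), *Stx17* (7.63 and 8.30), *Stx18* of the ER (6.63 and 4.95) and *Stx8* (4.06 and 3.54) had ratios from 0.919 to 1.47.

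The remaining 17 members have other or less settled roles, and 6 of them passed the limit of 1. *Syt11* (chr3:88548623-88576521), a synaptotagmin that does not bind calcium, had an RPKM of 1.39 in the CvP against 0.27 in the Epi, a ratio of 5.15 (3.59 to 7.75). *Stxbp4* (chr11:90337807-90499422), a binding partner of syntaxin 4, had 1.30 and 0.41, a ratio of 3.17 (2.43 to 4.26). *Snap47*, a broadly expressed relative of *Snap25*, had the highest CvP RPKM of its family, 21.42 in the CvP against 12.92 in the Epi. Exons of *Snap47* share 307 bases with *Jmjd4* on the opposite strand. *Syt8* had 3.87 and 2.91, a ratio of 1.33 (1.05 to 1.70), and *Syt12* had 1.41 and 0.80, a ratio of 1.76 (1.33 to 2.34). Exons of *Syt12* share 950 bases with the antisense lincRNA *A930001C03Rik*. Among other members with exons shared with a gene on the opposite strand were *Syt4* (575 bases, *Gm16871*), *Stx18* (573, *Nsg1*) and *Syt7* (384, *Gm17289*). The part of such genes in these values was not tested.

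*Syt10* (chr15:89612824-89672291), a calcium sensor known from neurons, was the member that was lower in the CvP. Its RPKM was 0.11 in the CvP against 3.05 in the Epi, about 6 and 157 reads, a ratio of 0.0361 (0.0136 to 0.0837). It was the reverse of *Syt1*, *Syt5* and *Syt7*. Skeletal muscle markers were also lower in the CvP, 5 of the 5 past the limit, and so were 3 of the 5 salivary gland markers, while the other two, *Pigr* (12.01 and 0.54) and *Aqp5* (6.09 and 0.69), were higher. The part of such tissue in the *Syt10* value was not tested.

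The other 15 members were under an RPKM of 1 in both libraries. They included *Cplx1*, *Cplx3*, *Snap91*, *Stxbp5l*, *Stxbp6*, *Vamp5* and the synaptotagmins *Syt3*, *Syt4*, *Syt9*, *Syt13*, *Syt14*, *Syt15*, *Syt16* and *Syt17*, with about 1 to 100 reads in the CvP. The CvP value was the higher one in 12, the Epi value in 1 (*Syt9*), and 2 were equal. For 8 of them the interval of the ratio lay above 1 and for 7 it held 1. The same counts were not made over all rows, so these numbers have no baseline. By the lower limit of the interval, 11 of all 52 members (21.2%) were above 3, against 12.0% of 18033 rows with any signal, and 4 of the 11 came from these low genes. These 4 were *Cplx1* (ratio 18.3, 5.78 to 188), *Stxbp6* (0.84 and 0.05, ratio 16.8, 7.27 to 45.7), *Syt4* and *Snap91*. *Syt4*, a synaptotagmin of dense-core vesicles, had 0.61 in the CvP, was listed at 0 in the Epi and was at least 22.1-fold higher by the floor of 3 reads, with a lower limit of 17.6. *Snap91*, the clathrin adaptor AP180 of vesicle retrieval and no SNARE despite its symbol, had 0.28, was listed at 0 in the Epi and was at least 8.99-fold higher by the floor, with a lower limit of 6.72. By the upper limit *Syt10* was under 1/3, against 1.19% of rows.

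Within each family the RPKM was divided among paralogs as follows. *Vamp8* held 50.4% of the RPKM of its family in the CvP against 55.6% in the Epi, and *Vamp2* 21.0% and 13.1%. In the *Snap* family, *Snap25* held 18.6% in the CvP against none in the Epi, where *Snap29* led with 39.8%. *Cplx2* held 92.8% of the complexin RPKM in the CvP. In the *Syt* family *Syt8* led in the CvP with 24.6%, and *Syt10* (34.9%) and *Syt8* (33.3%) led in the Epi. *Stx12* led its family with 18.2% and 25.2%, and *Stx19* made up 6.89% and 15.7%. *Stxbp2* led its own with 47.1% and 45.6%. Per annotated transcript, the share of *Syt8* in the CvP was 56.7% and that of *Snap29* in the Epi 18.0%. The lead in the Epi also changed by that length. Per transcript the Epi level of *Syt8* was 13.8 against 5.81 for *Syt10*, and that of *Snap47* 45.9 against 14.6 for *Snap29*. Other shares named here, such as those of *Snap25* and *Stx19*, change with the length too. As a share of reads, RPKM times listed length, *Syt10* and *Snap29* held 22.7% and 26.0% in the Epi, and *Vamp8* held 28.8% and 34.5%.

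**Figure D3:**
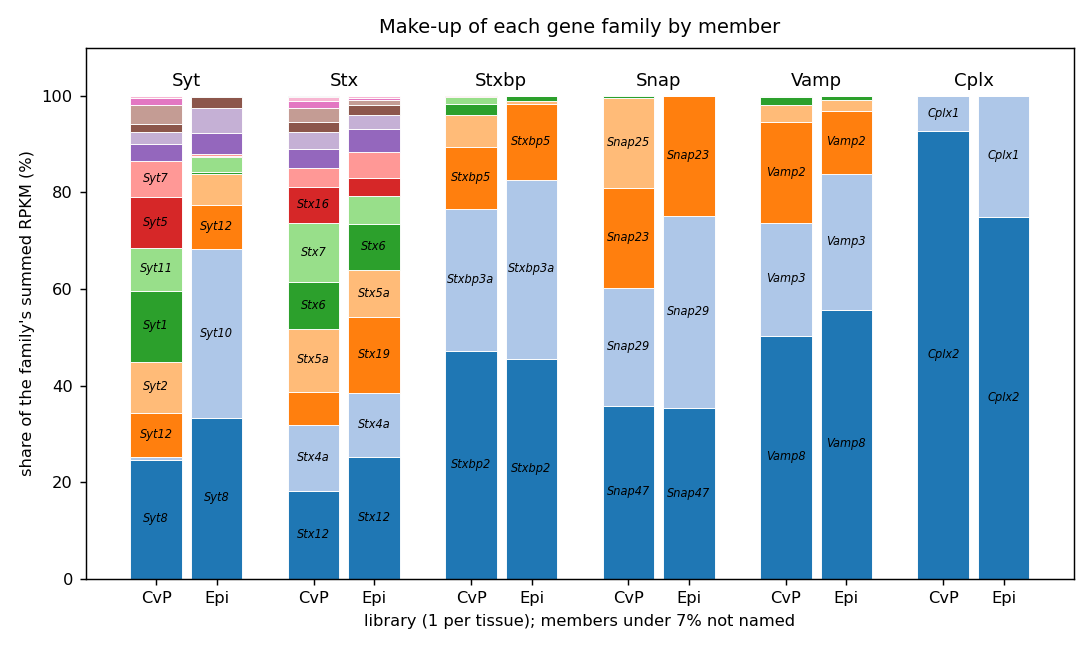
Share of each family's summed RPKM (y axis, percent) held by its members in the CvP and the Epi library, 1 bar per library, with members under 7% not named. *Snap25* fills 18.6% of the *Snap* bar in the CvP and is missing from the Epi, and *Syt10* fills 34.9% of the *Syt* bar in the Epi.

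A list of 67 other genes of docking, priming and fusion had 66 rows, of which 40 passed the limit of 1. Of the 40, 9 were higher (22.5%, against 15.9% of all rows past the limit), none was lower and 31 were neither. Their median log2 ratio was 0.27, below the 0.50 of all rows past the limit. *Cadps2* and *Cadps*, which prime dense-core vesicles, had an RPKM of 17.05 and 2.76 in the CvP against 0.19 and 0.04 in the Epi. The ratio of *Cadps2* was 89.7 (60.4 to 136). Of the small GTPases of vesicle docking, *Rab27a* had 6.39 and 1.16 and *Rab3a* 6.10 and 1.55. The vesicle membrane proteins *Syngr1* (4.54 and 1.42), *Syp* (2 and 0.08) and *Sv2a* (1.13 and 0.06) were higher too, as were *Sytl3* (2.04 and 0.09), an effector of Rab27, and *Ppfia4* (1.86 and 0.27), a liprin. The 5 genes of the list with the highest CvP RPKM had ratios from 0.725 to 1.09. These were *Sytl1* (99.61 and 137.33), *Syngr2* (61.34 and 56.25), *Rab3d* (56.23 and 53.98), *Napa* (40.58 and 41.75) and *Ykt6* (37.09 and 44.05), of which *Napa* encodes the SNAP adaptor that helps take bundles apart.

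Marker genes of the cell types the samples could hold were read beside the members. Type III taste markers passed 3-fold in 7 of the 7 genes past the limit, led by *Pkd1l3* (47.57 and 0.40) and *Otop1* (20.07 and 0). The serotonin genes *Tph1* (0.02 and 0) and *Slc18a2* (0.43 and 0.30), also on that list, were under 1 in both libraries. Type II markers did so in 6 of 7, led by *Gnat3* (127.11 and 0.03), *Plcb2* (70.01 and 0.12) and *Trpm5* (37.80 and 0.01), and type I markers in 2 of 3, led by *Entpd2* (54.83 and 4.53), while the remaining type I marker, *Slc1a3*, was lower (1.04 and 3.82). Of 11 neuron markers with a row, 8 had the higher value in the CvP against 2 in the Epi. *Uchl1* (15.00 and 0) and *Nefl* (2.32 and 0) were among the 8, *Tubb3* (4.58 and 40.37) was one of the 2, and *Gap43* was listed at 0 in both. The neuron list summed to 18.6 in the CvP against 0.15 in the Epi without *Tubb3*, and to 23.2 and 40.5 with it. The direction of the sum thus turns on *Tubb3*, and the 18.6 rests mostly on *Uchl1* (15.00). *Rbfox3* and *Prph*, defining markers of neuronal cell bodies and of peripheral neurons, were at 0.03 and 0.02 in the CvP. Of the glia and Schwann markers *Mbp* alone passed the limit (10.29 and 8.94), and the list summed to 11.8 and 9.35. Immune markers were higher in 4 of 5, with sums of 78.8 and 25.6, led by *Cd74* (60.56 and 19.90). Keratinocyte markers, led by *Krt13* (17548.78 and 47814.69), summed to 35099 and 80130. None was higher and 1, *Krt14* (294.83 and 1140.2), was lower, while *Krt5* had the larger value in the CvP (1505.71 and 1270.54). The part of any of these cell types in the members' values was not tested.

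**Figure D4:**
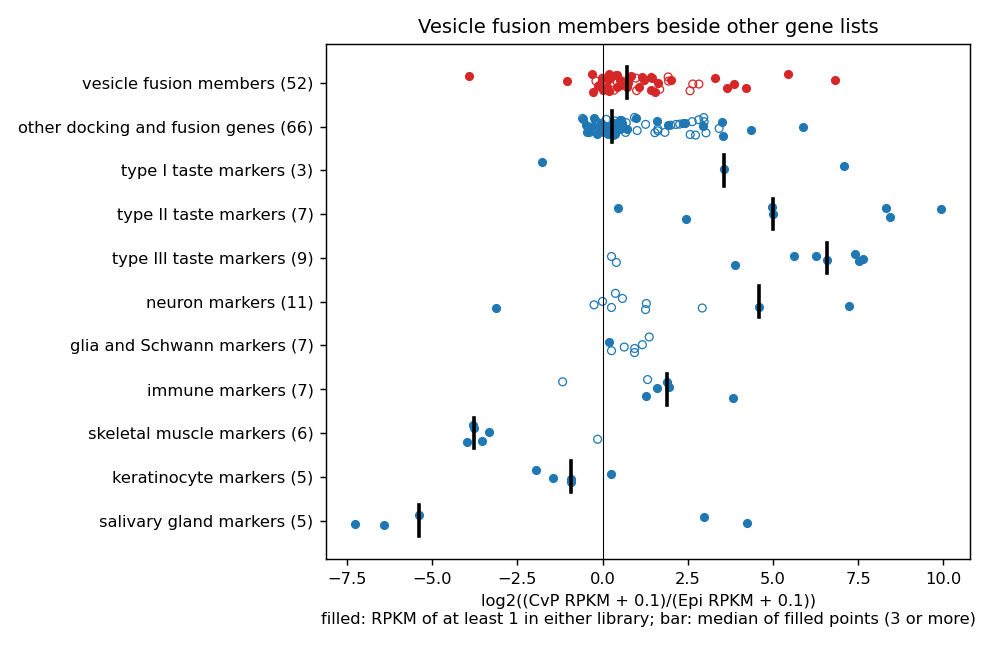
Log2 of the CvP/Epi ratio with 0.1 added to both RPKM values (x axis) for each gene of the members (red) and of 10 other lists (rows; genes with a row in parentheses), filled where the RPKM reached 1 in either library and with a bar at the median of 3 or more filled points. The members and the other docking and fusion genes centre at 0.72 and 0.27 with a tail to the right, where all rows past the limit centre at 0.50. The 7 filled type III taste markers all lie above 3-fold.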

How the data were processed

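Poly(A) RNA of CvP and Epi was sequenced as single-end reads, 1 pooled library per tissue. Alignment by the authors used Bowtie 0.12.7 and NCBI37/mm9, and the deposited values are RPKM from ERANGE, per gene and its exon model. The handling of reads that match several places was not given in the sources used here. The authors' CvP/Epi column was not used.

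The members and lists were chosen with earlier results of these data known. Mapped reads were estimated from RPKM steps in 163 rows of 0.1 kb. Reads per gene used the listed length or the longest GENCODE M1 coding transcript, whichever was shorter, and are low estimates where the listed length is the longer. Where the listed length was longer, it gave whole read numbers for 85.7% of 7 CvP values and 77.8% of 9 Epi values checked. The transcript length did so for 23.7% of 38 and 28.0% of 50. Intervals of such rows are therefore wider than the listed length would give. Of the 52 members, 24 had a listed length over 1.5 times that transcript. Exact intervals and floors of 3 reads cover counting error only. For the median log2 ratio 0.1 was added to each RPKM, so low genes show less than their full difference. No test was run. Any member at or above an RPKM of 1 could be named, with the genes past 3-fold and the 5 highest of the pathway list and the 3 highest of each marker list. Other genes were named after their values were seen. Some members and markers stand in the counts and sums but are not reported here by name. Windows of 75 bases of the members' coding transcripts, compared with up to 2 mismatches, were shared only between *Syt11* and *Stxbp4* or *Snap23* (0.708% of the windows of *Syt11*). The depth estimate and the intervals were tested on data simulated with the listed length, so the use of the shorter length was not tested. Alternatives were other minimums, folds, pseudocounts, scalings and lengths. Python 3.11.15, numpy 2.4.6, pandas 2.3.3, scipy 1.17.1 and matplotlib 3.10.9 were used.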

Additional observations from a re-analysis of the deposited data

How the results depend on the processing

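No paired analysis was possible because no result rests on a test, with a single library of each tissue. With 1 library per tissue, differences between mice, dissections and library preparations cannot be told apart from the difference between the tissues. Members under an RPKM of 1 rest on at most about 100 reads in the CvP, and ratios on 1 to 3 Epi reads have wide intervals.

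Of the members, 10 were higher in the CvP. With no minimum RPKM 19 were, with a minimum of 3 and of 5 there were 4 and 3, with a pseudocount of 1 there were 4, and with RPKM rescaled to the same sum 16. The count stayed between 7 and 15 with a fold of 2 or 5, a pseudocount of 0.1, each symbol once, or ratios divided by the median ratio, where *Stx1a*, *Stx3* and *Stxbp4* dropped out at 2.56, 2.30 and 2.42. The 1 lower member became 0 at a minimum of 5 and 2 at a fold of 2. The 1 member that met the criteria of the study became 19 with no minimum, 4 and 3 at a minimum of 3 and 5, 3 at a fold of 2, and 5 after rescaling. The median log2 ratio of 0.72 was 0.41 at a minimum of 5, 0.53 with a pseudocount of 1, 0.33 with ratios divided by the median and 1.00 after rescaling.

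The ratio of a single member moved beyond its interval for 4 of 37 with 0.1 added to each RPKM, 14 with 1 added, 27 once ratios were divided by the median and 22 after rescaling. Reads taken from the listed length leave a ratio as it is by construction, and raise the bound of *Snap25* from at least 219-fold to at least 1256-fold.

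As shares of reads, here RPKM times the listed length, the leading members held 29.7% (*Syt8* in the CvP), 22.7% (*Syt10* in the Epi), 20.5% and 32.9% (*Stx12*, CvP and Epi), 40.8% and 40.3% (*Stxbp2*), 26.0% (*Snap29* in the Epi), 28.8% and 34.5% (*Vamp8*) and 96.6% (*Cplx2* in the CvP). Per annotated transcript, an alternative added after seeing the data, they held 56.7% (*Syt8*), 25.4% (*Syt10*), 19.5% and 30.8% (*Stx12*), 49.1% and 48.5% (*Stxbp2*), 41.7% (*Snap47* in the CvP), 18.0% (*Snap29*) and 52.8% and 58.9% (*Vamp8*). Among members at or above an RPKM of 1 only, *Syt8* held 28.5%, *Syt10* 39.7% and *Cplx2* 100% in both tissues.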

Other observations

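Annotation terms in the deposited table gave a wider view, in rows chosen after the values were seen. The pathway of SNARE interactions in vesicular transport held 30 rows, of which 22 were members. Of the 8 others, all past an RPKM of 1, none was past 3-fold in either direction. The cellular component synaptic vesicle held 83 rows, of which 13 were members. Of its 70 other rows, 44 were past the limit of 1, 14 were higher in the CvP and 1 was lower. Over all rows past the limit, 15.9% were higher and 1.96% lower. Beside *Cadps2*, *Rab3a*, *Sv2a*, *Syngr1* and *Syp*, the 14 held *Ddc*, an enzyme of monoamine synthesis, and *Amph*, a protein of vesicle retrieval.

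The neighbouring members *Vamp5* and *Vamp8* lie 4752 bases apart on chromosome 6 and had ratios of 2.47 and 1.01. *Vamp5* rests on about 22 CvP reads and 9 Epi reads.

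In the list of docking and fusion genes, *Pclo*, the gene of the active zone scaffold piccolo, had an RPKM of 0.97 in the CvP, about 553 reads, and was listed at 0 in the Epi.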
